A study of Mus musculus with 9 samples.

Results

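Protein phosphatase 2A (PP2A) subunit transcripts were examined in mouse oocytes sequenced fresh or after 1 of 2 cryopreservation methods. The 10 genes were taken by name from the 26358 genes of the expression table: the catalytic subunits Ppp2ca and Ppp2cb, the scaffolds Ppp2r1a and Ppp2r1b, the B55 regulatory subunits Ppp2r2a and Ppp2r2d, and the B56 regulatory subunits Ppp2r5a, Ppp2r5c, Ppp2r5d and Ppp2r5e. They were chosen by the measured values of cryopreservation-2 against cryopreservation-1, in which Ppp2ca differed, so the values of that comparison are given as a description and without a test.

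Cryopreservation-2 oocytes were cooled in a straw, in 17.5% EG and 1 M trehalose with PVA/Fe3O4/GO nanoparticles. Cryopreservation-1 oocytes were cooled on a cryotop, in 15% EG, 15% DMSO and 0.5 M sucrose. Fresh oocytes were not cryopreserved. Each group had 3 poly(A) RNA-seq libraries, and the labels used here do not give the strain or age of the mice or the stage of the oocytes. The labels do not say whether the 3 libraries of a group came from separate animals or pools, so p-values measure the spread between these libraries, which may be technical.

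PP2A is a serine/threonine phosphatase built from a catalytic, a scaffold and a regulatory subunit, and the regulatory subunit sets which substrates are reached. In oocytes the B55 forms are known for opposing the kinase CDK1 and are held in check by the Greatwall kinase through its targets ENSA and ARPP19. The B56 forms are known for working with shugoshin proteins, which protect centromeric cohesin from cleavage in the first meiotic division.

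The libraries held between 49337232 and 80877288 counts, and the 3 shallowest were those of cryopreservation-2. In Pearson correlation of log2 levels over 8091 genes, cryopreservation-2 replicate 1 stood at 0.927 and 0.922 with replicates 2 and 3 of its group. Those 2 replicates correlated at 0.971 with each other. Within its group replicate 1 had the highest level of Ppp2ca and the lowest of Ppp2r1a. All 10 listed oocyte markers were detected, and their summed level lay between 14227 and 19829 CPM (counts scaled to library size) in cryopreservation-2, between 15130 and 21064 CPM in cryopreservation-1 and between 15790 and 23862 CPM in fresh oocytes. Of 12 listed cumulus and granulosa markers, 8 were in the table, and they summed to between 42.0 and 87.5 CPM in cryopreservation-2, between 74.1 and 90.7 CPM in cryopreservation-1 and between 81.7 and 93.0 CPM in fresh oocytes. Inhbb was at 0 in all cryopreservation-2 libraries, Ptx3 in all fresh libraries and both of them in all cryopreservation-1 libraries. Of 8 immune and blood markers 7 were in the table, summing to between 2.95 and 12.1 CPM in cryopreservation-2, between 7.13 and 15.1 CPM in cryopreservation-1 and between 9.31 and 12.5 CPM in fresh oocytes. Of 10 stromal and endothelial markers 7 were in the table, summing to between 97.6 and 195 CPM in cryopreservation-2, between 104 and 181 CPM in cryopreservation-1 and between 110 and 173 CPM in fresh oocytes. Against fresh oocytes 2 of these 7 rose in cryopreservation-2 in edgeR, Myh11 and Krt8, where 5.38% of all tested genes were called. Of the others, Dcn, Pdgfra, Pecam1 and Col1a1 had a lower mean CPM in cryopreservation-2 than in fresh oocytes, and Acta2 a higher one. Krt8 averaged 1.40 CPM in cryopreservation-2, 1.95 CPM in cryopreservation-1 and 0.0192 CPM in fresh oocytes. The part that RNA of such cells plays in the results was not tested. In bulk RNA a transcript present in fewer cells and one with fewer copies per cell cannot be told apart, and with poly(A) selection a change in tail length cannot be told apart from either.

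Ppp2ca, on chromosome 11 from 52098681 to 52127778 of GRCm38 on the plus strand, encodes the alpha catalytic subunit. Its level in FPKM, a scale that corrects for transcript length and library size, was 12.4, 10.1 and 6.83 FPKM in the 3 cryopreservation-2 libraries, 0.688, 0.843 and 0.562 FPKM in the cryopreservation-1 libraries, and 3.99, 1.61 and 0.790 FPKM in the fresh libraries. Every cryopreservation-2 library was above every other library, while the cryopreservation-1 and fresh ranges overlapped and the fresh libraries spanned a wide range. Ppp2ca averaged 9.78 ± 2.80 FPKM in cryopreservation-2, 0.698 ± 0.141 FPKM in cryopreservation-1 and 2.13 ± 1.66 FPKM in fresh oocytes (SD, n = 3 each). Ppp2ca rose in cryopreservation-2 relative to fresh oocytes, with a log2 fold change of 2.11 (SE 0.50), or 4.30-fold (edgeR quasi-likelihood test on counts, Benjamini-Hochberg adjusted p = 0.0394 over 17545 genes). This comparison uses the same cryopreservation-2 libraries for which the gene was singled out and is not independent evidence. The call was lost when any 1 library other than fresh replicate 1 was left out, with adjusted p up to 0.104 by the same test and log2 fold changes from 1.71 to 2.34 in those 8 fits. Without fresh replicate 1 the log2 fold change of Ppp2ca was 2.84, with an edgeR adjusted p of 0.0205.

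Ppp2cb, the beta catalytic subunit gene on chromosome 8, was listed at 0 in all 6 cryopreserved libraries. The 3 fresh libraries held 2, 0 and 4 counts, or 0.00993, 0 and 0.0300 FPKM, and a count of 0 allows up to 0.0575 CPM in the library where this limit was highest. Ppp2cb did not pass the filter on low counts and was not tested.

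An antisense noncoding gene, 9430098F02Rik, overlaps 2985 of the 7102 exon bases of Ppp2ca, or 42.0%, in the GENCODE M21 annotation. The expression table has no row for this gene, so its level could not be read. The library protocol marks strand with dUTP, but no source used here says whether the counting used it, so reads of Ppp2ca and of this partner cannot be told apart.

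**Figure D1:**
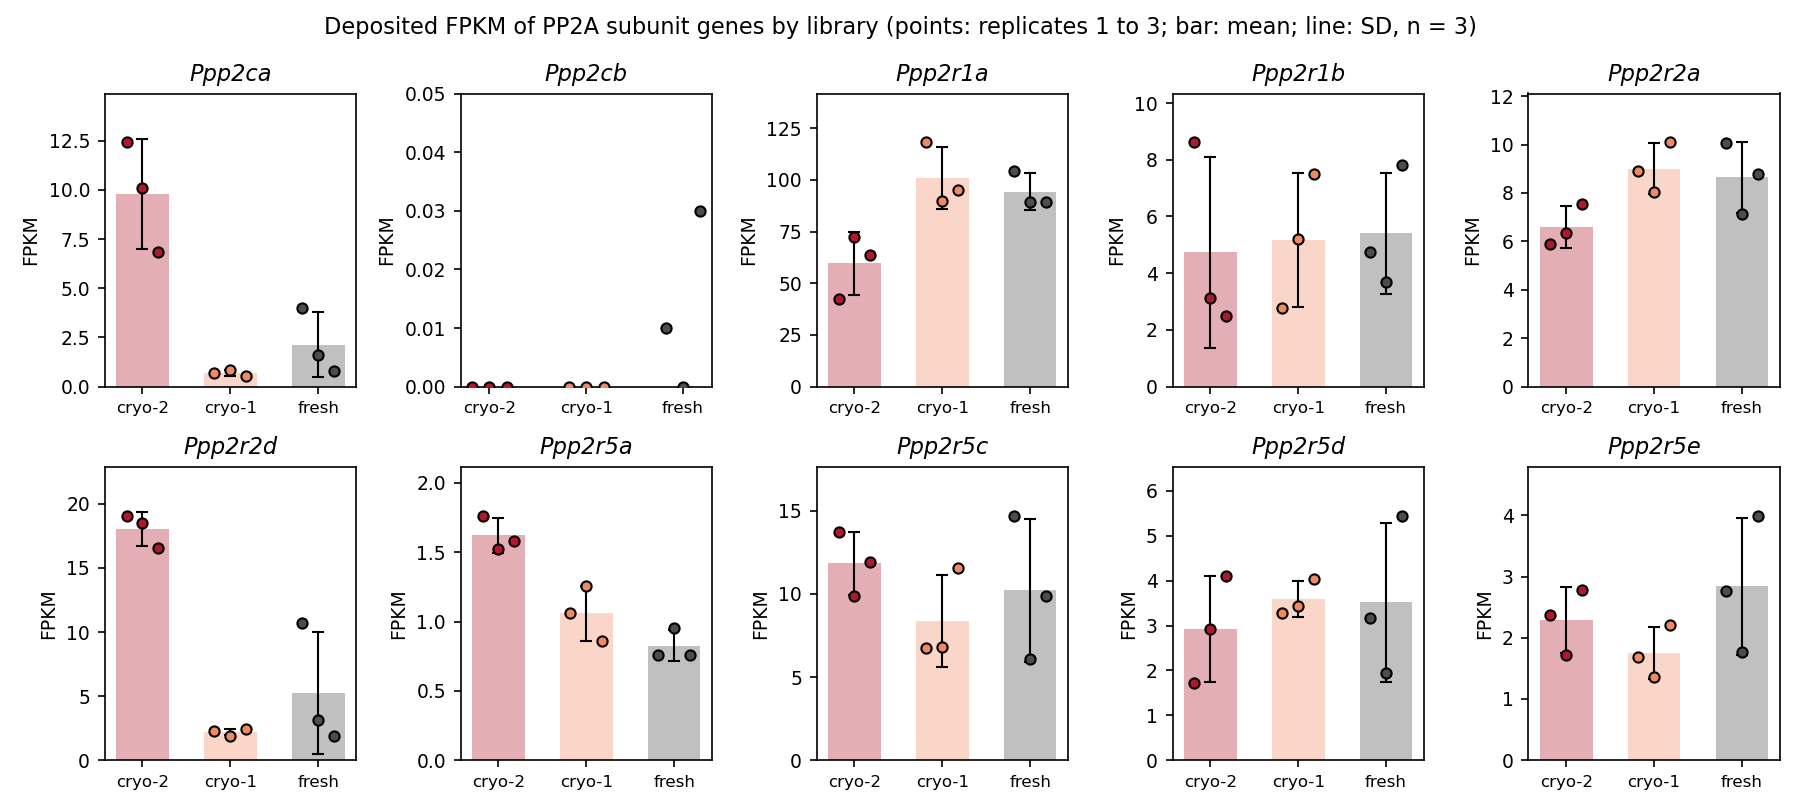
Level of each PP2A subunit gene in FPKM, with points for single libraries, bars for group means and error bars for the SD (n = 3 per group); cryo-2 and cryo-1 stand for cryopreservation-2 and cryopreservation-1, and Ppp2cb has points only. Ppp2ca and Ppp2r2d are higher in all 3 cryo-2 libraries than in any other library, and Ppp2r1a is lower in all 3 cryo-2 libraries than in any other.

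The scaffold subunits hold the complex together through a horseshoe of repeated helices. Ppp2r1a, on chromosome 17 from 20945311 to 20965916 on the plus strand, encodes the alpha scaffold and was the most abundant PP2A subunit per length in all 3 groups. Its level was 42.5, 72.5 and 63.7 FPKM in cryopreservation-2, 118, 89.6 and 94.9 FPKM in cryopreservation-1, and 104, 89.1 and 89.4 FPKM in fresh oocytes. All 3 cryopreservation-2 libraries lay below the other 6, which overlapped one another. The difference of cryopreservation-2 from fresh oocytes was -0.80 on the log2 scale (SE 0.21) and missed the threshold (edgeR, adjusted p = 0.0533). With offsets that follow gene length the adjusted p of Ppp2r1a was 0.0349 in edgeR, and DESeq2, which called 13.8% of all genes, gave 0.0063. The other 6 of 8 settings missed the threshold. All 9 fits that left out 1 library also missed it, with edgeR adjusted p from 0.0728 to 0.149 and log2 differences from -0.94 to -0.59.

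Ppp2r1b, the beta scaffold on chromosome 9, was far less abundant per length. Its level was 8.61, 3.12 and 2.50 FPKM in cryopreservation-2, 2.77, 5.21 and 7.49 FPKM in cryopreservation-1, and 4.75, 3.68 and 7.80 FPKM in fresh oocytes. The 3 groups overlapped and single libraries of a group differed by more than the group means did. The log2 difference of cryopreservation-2 from fresh was -0.28 (SE 0.52, edgeR adjusted p = 0.822). The antisense gene Sik2 overlaps 39.2% of the Ppp2r1b exon bases and held 27 to 222 counts. Ppp2r1a made up 91.8 ± 7.44% of the summed scaffold FPKM in cryopreservation-2, 95.0 ± 2.54% in cryopreservation-1 and 94.6 ± 2.24% in fresh oocytes (SD, n = 3 each).

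The ratio of scaffold to catalytic transcript, as summed FPKM of Ppp2r1a and Ppp2r1b over that of Ppp2ca and Ppp2cb, was 4.12, 7.51 and 9.68 in cryopreservation-2, 176, 112 and 182 in cryopreservation-1, and 27.3, 57.7 and 118 in fresh oocytes. Scaffold transcript exceeded catalytic transcript in every library, by the smallest factors in the 3 cryopreservation-2 libraries. The ratio contains Ppp2ca and is a description.

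The B55 subunits recruit substrates through a propeller-shaped protein. Ppp2r2d, on chromosome 7 from 138846079 to 138883057 on the plus strand, encodes the delta form. Its level was 19.1, 18.5 and 16.6 FPKM in cryopreservation-2, 2.26, 1.91 and 2.40 FPKM in cryopreservation-1, and 10.7, 3.17 and 1.91 FPKM in fresh oocytes. The cryopreservation-2 libraries were above all others and close together, the cryopreservation-1 libraries were low and close together, and the fresh libraries spread from the cryopreservation-1 level upwards without reaching that of cryopreservation-2. Relative to fresh oocytes the log2 difference in cryopreservation-2 was 1.69 (SE 0.49), or 3.22-fold, and missed the threshold (edgeR, adjusted p = 0.0759). Ppp2r2d passed the threshold in 3 of 8 other settings, among them DESeq2, with adjusted p = 0.00427, and limma on log2(FPKM + 1), with adjusted p = 0.0186. Without fresh replicate 1, its highest fresh library, the log2 difference was 2.64 with an adjusted p of 0.0137 in edgeR. The other 8 fits that left out 1 library missed the threshold for Ppp2r2d, with edgeR adjusted p from 0.109 to 0.175 and log2 differences from 1.29 to 1.79.

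Ppp2r2a, the alpha form of B55 on chromosome 14 from 67014056 to 67072444 on the minus strand, did not share this pattern of values. It had 5.91, 6.34 and 7.56 FPKM in cryopreservation-2, 8.91, 8.03 and 10.1 FPKM in cryopreservation-1, and 10.05, 7.11 and 8.78 FPKM in fresh oocytes. The cryopreservation-2 libraries were below the cryopreservation-1 libraries, and they overlapped the fresh ones in FPKM but not in CPM. The log2 difference of cryopreservation-2 from fresh was -0.52 (SE 0.19, edgeR adjusted p = 0.142).

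Ppp2r2d made up 76.3%, 74.5% and 68.7% of the summed FPKM of the listed B55 genes, Ppp2r2a and Ppp2r2d, in cryopreservation-2, 20.3%, 19.2% and 19.2% in cryopreservation-1, and 51.5%, 30.8% and 17.8% in fresh oocytes. The further B55 genes Ppp2r2b and Ppp2r2c are not in these sums. Ppp2r2b averaged 0.875 FPKM in cryopreservation-2, 1.68 FPKM in cryopreservation-1 and 1.35 FPKM in fresh oocytes. Ppp2r2d was thus the larger of the listed B55 transcripts in every cryopreservation-2 library and in fresh replicate 1, and Ppp2r2a was the larger in the other 5 libraries. The summed level of the listed B55 genes averaged 24.7 ± 0.448 FPKM in cryopreservation-2, 11.2 ± 1.28 FPKM in cryopreservation-1 and 13.9 ± 5.92 FPKM in fresh oocytes (SD, n = 3 each).

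**Figure D2:**
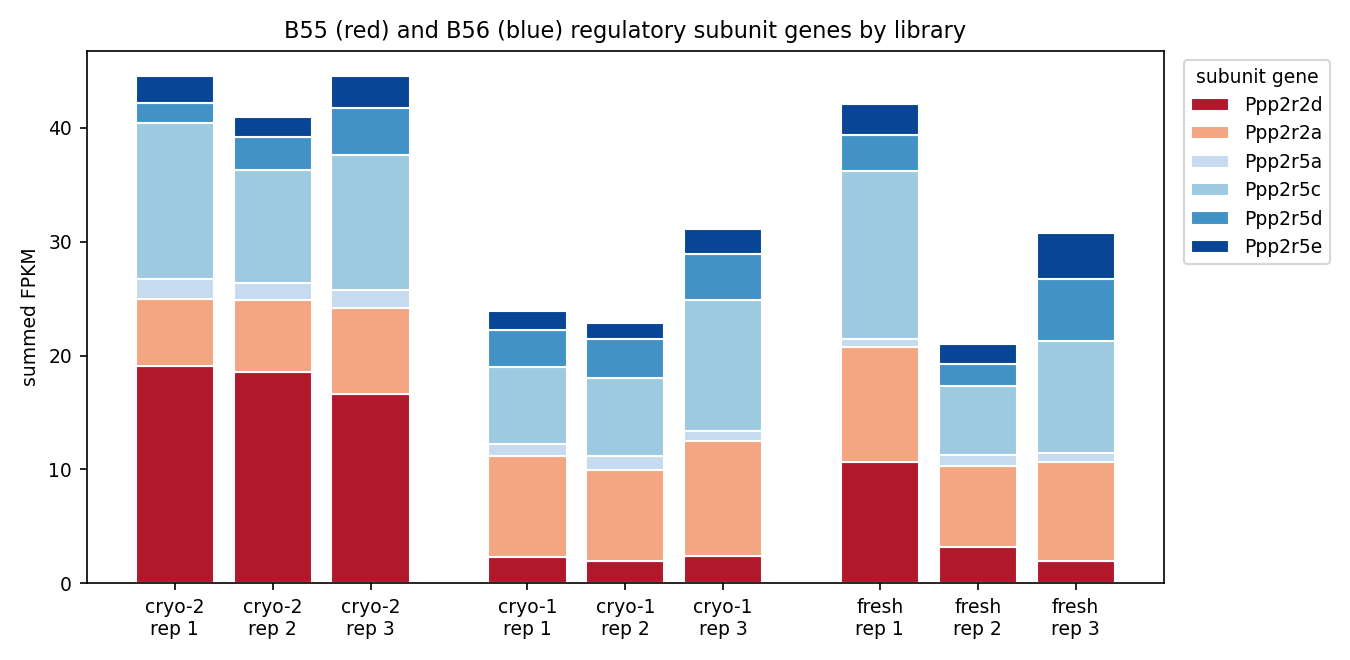
FPKM of each listed B55 and B56 regulatory subunit gene in each library, with cryo-2 and cryo-1 standing for cryopreservation-2 and cryopreservation-1. Ppp2r2d takes the largest share in the 3 cryo-2 libraries, between 16.6 and 19.1 FPKM, and is between 1.91 and 10.7 FPKM in the other 6.

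The B56 subunits bind short motifs in partner proteins such as BUBR1. Ppp2r5c, the gamma form on chromosome 12, was the most abundant B56 transcript per length, at 13.7, 9.89 and 11.9 FPKM in cryopreservation-2, 6.75, 6.84 and 11.5 FPKM in cryopreservation-1, and 14.7, 6.08 and 9.86 FPKM in fresh oocytes. Its groups overlapped, with a log2 difference of cryopreservation-2 from fresh of 0.11 (SE 0.31, edgeR adjusted p = 0.890). Ppp2r5a, the alpha form on chromosome 1 from 191351975 to 191403272 on the minus strand, had 1.76, 1.52 and 1.58 FPKM in cryopreservation-2, 1.06, 1.26 and 0.861 FPKM in cryopreservation-1, and 0.760, 0.953 and 0.760 FPKM in fresh oocytes. Its 3 cryopreservation-2 libraries lay above the other 6. The log2 difference of Ppp2r5a from fresh oocytes was 0.84 (SE 0.27) and missed the threshold in edgeR (adjusted p = 0.0972), while DESeq2 gave an adjusted p of 0.0144. Ppp2r5a missed it in the other 7 of 8 settings and in all 9 fits that left out 1 library.

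Ppp2r5d, the delta form on chromosome 17, had 1.73, 2.93 and 4.11 FPKM in cryopreservation-2, 3.27, 3.45 and 4.04 FPKM in cryopreservation-1, and 3.16, 1.94 and 5.44 FPKM in fresh oocytes. Ppp2r5e, the epsilon form on chromosome 12, had 2.37, 1.72 and 2.79 FPKM in cryopreservation-2, 1.68, 1.36 and 2.20 FPKM in cryopreservation-1, and 2.76, 1.76 and 3.99 FPKM in fresh oocytes. Mea1, on the opposite strand of Ppp2r5d, shares 121 of the 3038 exon bases of Ppp2r5d and held 3277 to 7572 counts. The groups of both Ppp2r5d and Ppp2r5e overlapped, with log2 differences of cryopreservation-2 from fresh of -0.40 (SE 0.38, edgeR adjusted p = 0.612) for Ppp2r5d and -0.43 (SE 0.33, edgeR adjusted p = 0.508) for Ppp2r5e. The summed level of the listed B56 genes, which leave out Ppp2r5b, averaged 18.7 ± 2.31 FPKM in cryopreservation-2, 14.8 ± 3.36 FPKM in cryopreservation-1 and 17.4 ± 5.80 FPKM in fresh oocytes (SD, n = 3 each). The share of the listed B55 genes in the summed level of the listed B55 and B56 genes was 57.0 ± 3.38% in cryopreservation-2, 43.4 ± 3.29% in cryopreservation-1 and 44.3 ± 8.26% in fresh oocytes (SD, n = 3 each).

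By mean FPKM the order in fresh oocytes was Ppp2r1a, Ppp2r5c, Ppp2r2a, Ppp2r1b, Ppp2r2d, Ppp2r5d, Ppp2r5e, Ppp2ca, Ppp2r5a and Ppp2cb. Ppp2r1a stood clear of the next gene, and from Ppp2r5c down to Ppp2r5a each neighbour overlapped the next in its libraries. In cryopreservation-2 Ppp2r2d stood at rank 2, overlapping neither Ppp2r1a above it nor Ppp2r5c below it, and Ppp2ca at rank 4. In cryopreservation-1 Ppp2ca stood at rank 9, below Ppp2r5a and above Ppp2cb, with no overlap on either side.

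Set against fresh oocytes, 1 of the 9 tested subunits, Ppp2ca, was called in cryopreservation-2 by edgeR at an adjusted p under 0.05, where 5.38% of all tested genes were called and 3.18% were called higher. The CPM of the groups did not overlap for 5 of the 9, with Ppp2ca, Ppp2r2d and Ppp2r5a higher and Ppp2r1a and Ppp2r2a lower, where 27.5% of all tested genes did not overlap, 15.1% being higher and 12.4% lower. Both counts include Ppp2ca, the gene for which the list was chosen, and use the same cryopreservation-2 libraries. They are not independent evidence. The median log2 difference was -0.28 over the 9 subunits and -0.06 over all 17545 genes.

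In cryopreservation-1 none of the 9 tested subunits was called against fresh oocytes by edgeR, DESeq2 or limma, and edgeR called 0% of all genes. At an unadjusted p under 0.05 in edgeR there were 3 of the 9, Ppp2ca, Ppp2r2d and Ppp2r5e, where 4.72% of all genes passed, and DESeq2 called 43 genes in all. This comparison uses the same cryopreservation-1 libraries for which Ppp2ca was singled out. The values and p-values of Ppp2ca here, and its place in this count, are not independent evidence. The log2 differences in cryopreservation-1 were -1.64 (SE 0.49) for Ppp2ca, -1.29 (SE 0.49) for Ppp2r2d and -0.76 (SE 0.33) for Ppp2r5e, each with an edgeR adjusted p of 1. Ppp2ca and Ppp2r5e were lower in cryopreservation-1 than in fresh oocytes in 3 of 3 same-numbered pairs of libraries, though the labels do not say what a number marks. In an edgeR fit of these 6 libraries with the replicate number as a block, the unadjusted p was 0.0131 for Ppp2ca, 0.0120 for Ppp2r5e and 0.0811 for Ppp2r2d, so that Ppp2r2d no longer had an unadjusted p under 0.05. No subunit had groups that did not overlap in this comparison, against 10.1% of all genes. Fresh replicate 1 was the highest fresh library for Ppp2ca and Ppp2r2d, and without it their differences were -0.91 and -0.33. Ppp2r5a stood at 0.29 (SE 0.26), Ppp2r5c at -0.33 (SE 0.31), Ppp2r1b at -0.13 (SE 0.52) and Ppp2r5d at -0.03 (SE 0.38) on the log2 scale. Ppp2r1a and Ppp2r2a stood at 0.03 (SE 0.21) and 0.00 (SE 0.19), and the sign of Ppp2r1a, Ppp2r1b, Ppp2r2a and Ppp2r5d turned under other settings or with 1 library left out. The median was -0.13 over the 9 subunits and 0.02 over all genes. Both comparisons with fresh oocytes share the 3 fresh libraries.

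Between the methods, Ppp2ca was 13.5-fold higher in cryopreservation-2 than in cryopreservation-1, a log2 fold change of 3.75. Ppp2r2d was 7.87-fold higher, 2.98 on the log2 scale. The other subunits differed by less, with -0.84 for Ppp2r1a, 0.55 for Ppp2r5a and -0.52 for Ppp2r2a on the log2 scale. Ppp2r1b, Ppp2r5c, Ppp2r5d and Ppp2r5e lay between -0.38 and 0.44 on that scale. The choice of the genes rests on this comparison, so no count of subunits called is given beside the 2.75% of all genes that edgeR called in it.

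**Figure D3:**
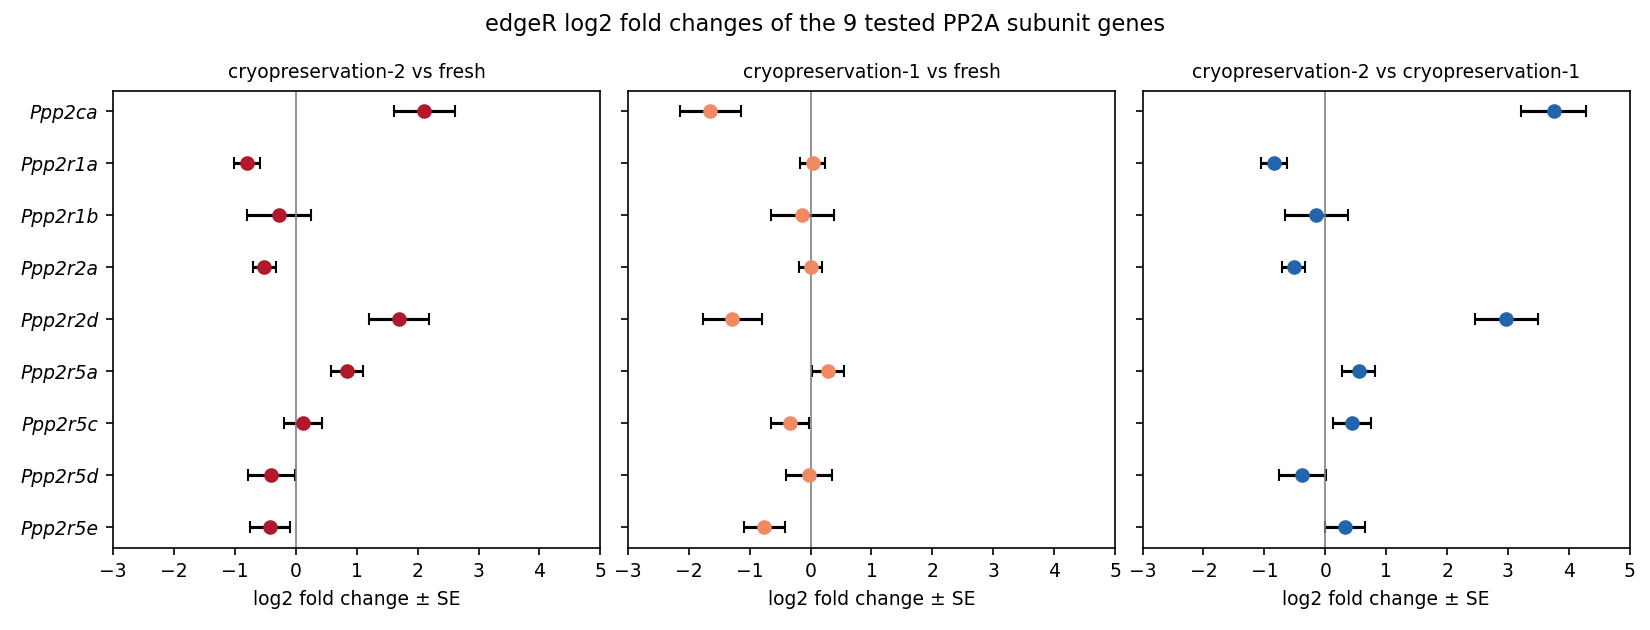
Log2 fold change of the 9 tested PP2A subunits in each comparison, from edgeR on counts, with bars of 1 SE; cryo-2 and cryo-1 stand for cryopreservation-2 and cryopreservation-1. Ppp2ca and Ppp2r2d lie above 0 in cryo-2 against fresh (2.11 and 1.69) and below 0 in cryo-1 against fresh (-1.64 and -1.29). The genes were chosen on cryo-2 against cryo-1, so the bars of that panel are a description and no test is read from them.

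Among 8090 other genes with a mean of at least 5 CPM, those with a log2(CPM + 0.5) pattern most like that of Ppp2ca over the 9 libraries were Siah1a (r = 0.983), Ppp2r2d (0.979), Smarca5 (0.978), Macf1 (0.971) and Znhit3 (0.960). Siah1a encodes a ubiquitin ligase, Smarca5 the motor of the ISWI chromatin remodellers, and Macf1 a crosslinker of microtubules and actin. The 9 points share 3 groups, so these are descriptions of shape. Siah1a had 203, 212 and 105 CPM in cryopreservation-2, 22.0, 28.5 and 22.3 CPM in cryopreservation-1, and 63.3, 41.3 and 20.7 CPM in fresh oocytes. As for Ppp2ca, fresh replicate 1 was the highest fresh library for all 5 of these genes.

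**Figure D4:**
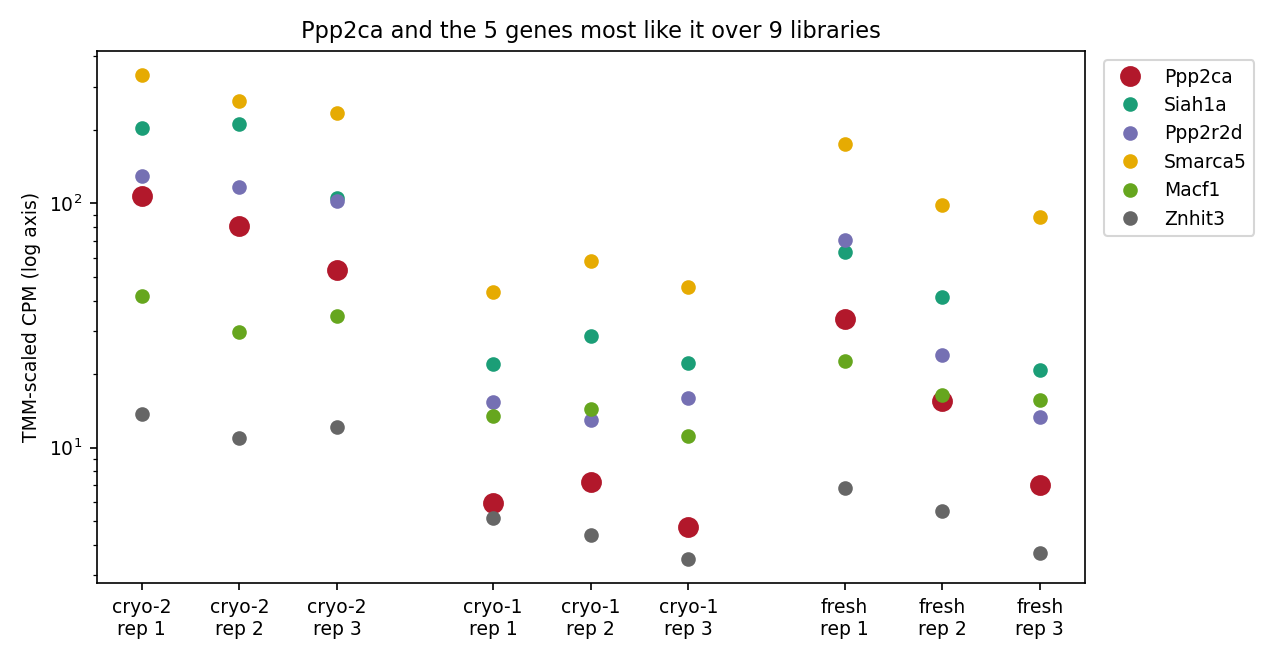
Level in TMM-scaled CPM, on a log axis, of Ppp2ca and the 5 genes most like it, by library, with cryo-2 and cryo-1 standing for cryopreservation-2 and cryopreservation-1. All 6 genes are highest in the 3 cryo-2 libraries, and within the fresh group replicate 1 is the highest for each.

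Promoters of Ppp2ca and Ppp2r2d are shown because Ppp2r2d was the subunit with the pattern most like that of Ppp2ca. RefSeq promoter windows of GRCm38.p6, 250 bases before to 50 bases after the start, were matched for 7 of the 10 genes. The capitals mark TGACGTCA, the consensus of the cAMP response element, which reads the same on both strands and was searched for after the windows had been read. The windows are chr11:52098574-52098873 and chr7:138846109-138846408, both on the plus strand. These RefSeq starts are not the gene starts given above. The Ppp2r2d window lies inside the gene bounds from 138846079, and the Ppp2ca window spans the gene start at 52098681. The marked letters of both genes lie inside those gene bounds.
Ppp2ca: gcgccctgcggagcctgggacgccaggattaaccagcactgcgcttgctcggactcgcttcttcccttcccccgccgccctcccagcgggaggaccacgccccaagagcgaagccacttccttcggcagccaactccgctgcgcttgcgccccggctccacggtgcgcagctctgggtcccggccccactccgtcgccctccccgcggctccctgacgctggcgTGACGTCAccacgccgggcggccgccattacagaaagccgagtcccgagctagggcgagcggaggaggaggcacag
Ppp2r2d: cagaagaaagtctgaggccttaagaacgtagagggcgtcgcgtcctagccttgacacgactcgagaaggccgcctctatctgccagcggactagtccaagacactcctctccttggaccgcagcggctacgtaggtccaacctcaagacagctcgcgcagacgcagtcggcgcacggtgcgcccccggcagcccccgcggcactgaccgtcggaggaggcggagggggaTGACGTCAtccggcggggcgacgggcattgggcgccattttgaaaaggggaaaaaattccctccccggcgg

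The 8 letters are in 3 of the 10 windows, from 2 of the 7 matched genes, Ppp2ca and Ppp2r2d, and in 588 of 32851 windows in all, or 1.79%. Ppp2r2d has overlapping windows, and the same site is counted in each of them. The GC box GGGCGG, searched on both strands, is in 7 of the 10 windows, from 6 of the 7 genes, all but Ppp2r2d, and in 35.7% of all windows. CCAAT, also on both strands, is in 8 of the 10 windows, from 6 of the 7 genes, all but Ppp2ca, and in 37.4% of all windows. These matches are descriptions of sequence, and no binding was measured.

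Other PP2A regulatory subunits were read from a list of 9 further genes. Strn, which encodes striatin, the regulatory subunit of STRIPAK complexes, fell in cryopreservation-2 relative to fresh oocytes, with a log2 fold change of -1.58 (SE 0.23, edgeR adjusted p = 0.00871). It had 32.9, 19.8 and 23.9 FPKM in cryopreservation-2, 52.7, 56.3 and 70.7 FPKM in cryopreservation-1, and 75.1, 67.5 and 68.1 FPKM in fresh oocytes. The cryopreservation-2 libraries lay below all others, and the call held when any 1 library was left out, with adjusted p up to 0.0329 in edgeR. The other 8 did not pass the test, by which 5.38% of all tested genes were called. The median log2 difference of the list was -0.71, beside -0.06 over all genes. Ppp2r2c was listed at 0 in all 3 cryopreservation-2 libraries and averaged 0.0525 FPKM in fresh oocytes.

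Among 16 genes of PP2A assembly, methylation and inhibition, Anp32a rose and Fam122b fell in cryopreservation-2 relative to fresh oocytes, where 5.38% of all tested genes were called. The list median was 0.13. Anp32a, known for a protein that inhibits PP2A, averaged 3.05 ± 0.551 FPKM in cryopreservation-2 and 1.33 ± 0.0831 FPKM in fresh oocytes (SD, n = 3 each), a log2 fold change of 1.05 (SE 0.26, edgeR adjusted p = 0.0429). Fam122b, a relative of the PP2A inhibitor gene Fam122a, averaged 2.53 ± 0.432 FPKM in cryopreservation-2 and 4.98 ± 0.948 FPKM in fresh oocytes (SD, n = 3 each), a log2 fold change of -1.09 (SE 0.27, edgeR adjusted p = 0.0431). Leaving out 1 library ended the call in 8 of 9 cases for Anp32a and in 7 of 9 for Fam122b, and of 8 other settings 3 ended it for Anp32a and 6 for Fam122b. Mastl, the Greatwall kinase gene, averaged 48.4 ± 32.3 FPKM in cryopreservation-2 and 49.4 ± 8.35 FPKM in fresh oocytes, and Arpp19 averaged 31.7 ± 17.2 FPKM in cryopreservation-2 and 33.6 ± 13.9 FPKM in fresh oocytes (SD, n = 3 each). Ensa averaged 1.75 ± 0.595 FPKM in cryopreservation-2 and 1.13 ± 0.553 FPKM in fresh oocytes (SD, n = 3 each), and neither it, Mastl nor Arpp19 passed the test.

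None of 14 measured partners of PP2A in meiosis and mitosis passed the edgeR test in cryopreservation-2 against fresh oocytes, with a list median of -0.61. At an unadjusted p under 0.05 edgeR had 7 of the 14, where 21.8% of all genes passed. These 7 went in both directions, most of them lower in cryopreservation-2. DESeq2 called 3 of the 14, where it called 13.8% of all genes, and limma on log2(FPKM + 1) called 1, where it called 10.2%. Sgo2a, the shugoshin that protects centromeric cohesin in mouse oocytes, averaged 11.98 ± 2.33 FPKM in cryopreservation-2 and 16.8 ± 1.15 FPKM in fresh oocytes (SD, n = 3 each), a log2 difference of -0.62 (SE 0.21, edgeR adjusted p = 0.113). Bub1b, which encodes BUBR1, averaged 253 ± 15.5 FPKM in cryopreservation-2 and 273 ± 103 FPKM in fresh oocytes (SD, n = 3 each), with an edgeR adjusted p of 0.743. Ccnb1, the cyclin that activates CDK1, stood at -0.70 (SE 0.23, edgeR adjusted p = 0.112) on the log2 scale.

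Of 13 genes of the related phosphatases PP4 and PP6, Ankrd52, a PP6 subunit gene, fell in cryopreservation-2, at 0.269 ± 0.0757 FPKM against 0.750 ± 0.248 FPKM in fresh oocytes (SD, n = 3 each), a log2 fold change of -1.61 (SE 0.38, edgeR adjusted p = 0.0383). The call on Ankrd52 held in 1 of 9 fits that each left out 1 library and was lost in 5 of 8 other settings, with a log2 difference of -0.46 (adjusted p = 0.0849) in limma on log2(FPKM + 1). The list median was -0.58. Of 13 measured PP1 genes, Ppp1r10, which encodes a nuclear targeting subunit, rose, with 22.0, 30.3 and 40.6 FPKM in cryopreservation-2, 11.4, 9.43 and 8.26 FPKM in cryopreservation-1, and 8.05, 9.14 and 9.56 FPKM in fresh oocytes. Its cryopreservation-2 libraries were above all others, and the log2 fold change against fresh was 1.64 (SE 0.24, edgeR adjusted p = 0.00845), called in 9 of 9 fits without 1 library. Ppp1r2, known for the PP1 inhibitor-2 protein, fell in cryopreservation-2, at 0.811 ± 0.0822 FPKM against 2.16 ± 0.362 FPKM in fresh oocytes (SD, n = 3 each), a log2 fold change of -1.54 (SE 0.30, edgeR adjusted p = 0.0206), and was called in 5 of 9 such fits. The PP1 list median was -0.19. Beside the calls in the PP4 and PP6 list and in the PP1 list, edgeR called 5.38% of all tested genes.

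Over these 5 lists edgeR called 6 of the 65 tested genes in cryopreservation-2 against fresh oocytes, where it called 5.38% of all genes. DESeq2 called 13 of them, where it called 13.8% of all genes, and limma on log2(FPKM + 1) called 6, where it called 10.2%. In cryopreservation-1 against fresh oocytes none of the 65 was called by edgeR, DESeq2 or limma. In edgeR 4 of the 65 had an unadjusted p under 0.05, where 4.72% of all genes did. The list medians on the log2 scale were 0.24 for the other PP2A regulatory subunits, -0.03 for assembly and inhibition, -0.07 for the meiosis partners, -0.26 for PP4 and PP6, and 0.00 for PP1. The genes named from the lists were named by the rule that edgeR called them in cryopreservation-2, except Ppp2r2c, Mastl, Arpp19, Ensa, Sgo2a, Bub1b and Ccnb1, which were picked for their roles after their values had been seen.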

How the data were processed

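Poly(A) RNA-seq of mouse oocytes was deposited as 1 table of raw counts and FPKM per gene and library. Per the submitters' processing notes, cutadapt 1.9, HISAT2 2.0.4, StringTie 1.3.4d and GRCm38 were used, with no role given for each. The authors' counts are unnormalized, and the deposited FPKM are scaled for length and library. Between any library and the first, the log2 ratio of count to FPKM shifted alike for all genes with at least 100 counts in each library (SD over genes at most 0.00353). The strand setting is not given in the sources used here.

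Counts of all 9 libraries were tested in edgeR 4.0.16 (R 4.3.3), with 1 coefficient per group, TMM scaling, a filter of at least 10 counts (15 in total), the quasi-likelihood test and Benjamini-Hochberg adjustment over 17545 genes. Values called have an adjusted p under 0.05. The SE of an edgeR log2 fold change is its absolute value divided by the square root of the F value of that test. FPKM served for levels and for comparing genes. Other settings used DESeq2 1.42.0, limma 3.58.1 on log2(FPKM + 1) or log2(FPKM + 0.1), RLE factors, no filter, only the groups compared, length-trend offsets, a replicate block, and each library left out. Same-numbered cryopreservation-1 and fresh libraries correlated in their deviations from the group means (0.269 to 0.460 over 3 pairs, against -0.356 to 0.0848 for different numbers). Deviations within a group sum to 0, so these values are not independent of one another. Differently numbered libraries of other groups reached 0.448, for cryopreservation-1 replicate 3 with cryopreservation-2 replicate 1. A pairing was therefore not established, and the labels do not say what a number marks. A fit of these 6 libraries with the number as a block was added after seeing the data. On simulated data for cryopreservation-2 against fresh oocytes (17545 genes, those over 5 CPM scored), 77.7% of genes changed 4-fold and 9.33% of those changed 2-fold were called. The simulation changed 200 genes in each of 3 runs, with a mean of 3.67 false calls. In the real comparison 944 genes were called, so these rates need not carry over to it. Totals per library, 49337232 to 80877288 counts, leave counting error small for all subunits but Ppp2cb, and the limit for 0 counts covers counting error only.

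The named genes are the 10 subunits, every gene of the 5 other lists called against fresh oocytes, and the 5 genes most like Ppp2ca over the 9 libraries, with Ppp2r2c, Mastl, Arpp19, Ensa, Sgo2a, Bub1b and Ccnb1 added for their roles after their values had been seen. The subunits and the lists were chosen with earlier results of these data known.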

Additional observations from a re-analysis of the deposited data

How the results depend on the processing

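In cryopreservation-2 against fresh oocytes, 944 genes were called, of which 59.1% were higher. The count was 2415 with DESeq2, 1792 and 1654 with limma on log2(FPKM + 1) and log2(FPKM + 0.1), 429 with only the groups compared and 500 with the replicate block, and 231 to 786 with 1 library left out. The higher share was 80.7% and 78.8% with the limma fits, 82.1% with only the groups compared and 70.4% with the block. The reported fit called 1 subunit, with 5.38% of all genes called. DESeq2 called 4 (Ppp2ca, Ppp2r1a, Ppp2r2d and Ppp2r5a), with 13.8% of all genes. Each limma fit called 2 (Ppp2ca and Ppp2r2d), with 10.2% of all genes for log2(FPKM + 1) and 9.43% for log2(FPKM + 0.1). Length-trend offsets gave 2 (Ppp2ca and Ppp2r1a), with 5.53% of all genes. With only the groups compared 0 were called, with 2.68% of all genes. With 1 library left out 0 to 2 were called, with 1.25% to 4.22% of all genes. These counts include Ppp2ca, the gene for which the list was chosen. With only the groups compared Ppp2ca had an edgeR adjusted p of 0.0822. The cause of these shifts was not tested.

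In cryopreservation-1 against fresh oocytes, 0 genes were called, with 43 in DESeq2, 1 with only the groups compared, 1 with these 6 libraries and the replicate block, and 0 to 1 with 1 library left out; the subunits called were 0 in every setting run. Log2 differences near 0 changed sign. Ppp2r1a was -0.083 with length-trend offsets. In the block fit of the 6 libraries Ppp2r1a was -0.0043, Ppp2r2a -0.0279 and Ppp2r5d 0.051. Ppp2r2a was -0.0295 with RLE, -0.0296 with DESeq2, -0.0282 with only the groups compared, -0.017 without a filter, -0.0496 with length-trend offsets and -0.00104 with the block. Ppp2r5d was 0.093 and 0.14 in limma and 0.065 with the block, and Ppp1r10 was -0.0059 with length-trend offsets. With 1 library left out the ranges were -0.10 to 0.11 for Ppp2r1a, -0.48 to 0.22 for Ppp2r1b, -0.0765 to 0.0767 for Ppp2r2a, -0.29 to 0.44 for Ppp2r5d, -0.087 to 0.17 for Ppp1r10 and -0.51 to 0.011 for Ankrd52. In cryopreservation-2 against fresh they were -1.07 to 0.074 for Ppp2r1b, -0.12 to 0.41 for Ppp2r5c and -0.68 to 0.056 for Ppp2r5d.

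Between the methods 483 genes were called, 54.5% of them higher, with 1830 in DESeq2, 1175 and 1010 in limma, 230 with the block and 15 to 480 with 1 library left out. The higher share was 73.3% and 67.7% in limma, 65.2% with the block and 65.2% with length-trend offsets. The count of subunits called between the methods is not given under any setting, because this comparison chose them.

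Replicate numbers did not pair cryopreservation-2 with either other group: same-numbered deviations correlated between -0.282 and 0.164 with fresh and between -0.433 and 0.159 with cryopreservation-1, and 4 of 9 libraries correlated best with their own number. With the replicate block over all 9 libraries the subunits called were 1 in cryopreservation-2 against fresh, with 2.85% of all genes called. In cryopreservation-1 against fresh they were 0, with 0% of all genes. The block fit of the cryopreservation-1 and fresh libraries also called 0 subunits.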
